A study of Mus musculus with 11 samples.

Results

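The visual cycle genes of the retinal pigment epithelium (RPE) are the genes for the enzymes, binding proteins and opsins with which this tissue takes up vitamin A and returns the light-sensing chromophore to photoreceptors. The members were chosen by name, with earlier results of these data known, and all 9 were found among the 14602 genes of the count table. They are Rpe65, Rlbp1, Rdh5, Lrat, Rgr, Stra6, Rdh10, Rdh11 and Rrh. RNA came from RPE/choroid of C57BL/6J mice collected at 12 months of age. The naïve control group (n = 6) was untreated, and the laser treated group (n = 5) had received the 2RT nanosecond laser at 9 months, 3 months before collection. The neural retina had been removed from the posterior eye cup, but the choroid was still present, and the RNA was pre-amplified with a SmartSeq v4 kit before library preparation. The laser reaches a limited number of spots of the RPE, whereas the libraries hold the whole tissue, so that fewer cells of a type and less RNA per cell cannot be told apart. The libraries are taken as separate mice because the labels count them so, and p-values measure the spread between these libraries.

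Photon absorption turns 11-cis-retinal, the chromophore bound to opsin in photoreceptors, into its all-trans form, which leaves as retinol and passes to the RPE. There LRAT esterifies retinol, RPE65 isomerizes and cleaves the ester into 11-cis-retinol, and RDH5 with other dehydrogenases oxidizes it to 11-cis-retinal, which the binding protein CRALBP (Rlbp1) carries. Rgr and Rrh (peropsin) are opsins of the RPE, and STRA6 is the membrane receptor through which cells take up retinol from its blood carrier.

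RefSeq promoter windows of GRCm38.p6, from 250 bases before to 50 bases after a transcript start, were at hand for 8 of the 9 members, in 12 windows. They are shown for Rpe65 and Rgr, the 2 members with the highest levels per length, for Rlbp1 and Rdh5, the pair whose levels moved most alike across libraries, and for Stra6, the member with the largest group difference (the first of its 4 windows). Capitals mark TAATCC, the core that OTX and CRX homeodomain factors bind, and CATGTG, an E-box of the kind that MITF binds, on either strand. The windows, 5′ to 3′ in the direction of the gene, are chr3:159598931-159599230 on the plus strand for Rpe65, chr14:37048965-37049264 on the minus strand for Rgr, chr7:79386978-79387277 on the minus strand for Rlbp1, chr10:128919248-128919547 on the minus strand for Rdh5 and chr9:58128838-58129137 on the plus strand for Stra6.
Rpe65: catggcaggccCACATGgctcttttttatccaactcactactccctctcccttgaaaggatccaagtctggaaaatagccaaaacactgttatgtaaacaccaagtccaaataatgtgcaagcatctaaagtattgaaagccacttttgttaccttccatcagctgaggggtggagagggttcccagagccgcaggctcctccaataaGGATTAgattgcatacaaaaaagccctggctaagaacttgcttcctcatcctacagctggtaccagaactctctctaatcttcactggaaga
Rgr: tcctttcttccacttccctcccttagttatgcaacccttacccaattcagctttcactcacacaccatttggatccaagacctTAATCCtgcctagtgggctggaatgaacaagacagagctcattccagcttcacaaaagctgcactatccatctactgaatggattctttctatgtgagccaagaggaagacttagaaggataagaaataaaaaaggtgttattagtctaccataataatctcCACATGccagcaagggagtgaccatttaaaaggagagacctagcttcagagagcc
Rlbp1: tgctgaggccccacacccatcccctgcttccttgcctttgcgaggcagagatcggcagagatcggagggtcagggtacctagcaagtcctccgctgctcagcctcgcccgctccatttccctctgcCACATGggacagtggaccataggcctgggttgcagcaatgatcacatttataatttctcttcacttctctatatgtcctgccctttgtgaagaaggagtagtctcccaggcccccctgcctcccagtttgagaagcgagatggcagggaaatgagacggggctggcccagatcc
Rdh5: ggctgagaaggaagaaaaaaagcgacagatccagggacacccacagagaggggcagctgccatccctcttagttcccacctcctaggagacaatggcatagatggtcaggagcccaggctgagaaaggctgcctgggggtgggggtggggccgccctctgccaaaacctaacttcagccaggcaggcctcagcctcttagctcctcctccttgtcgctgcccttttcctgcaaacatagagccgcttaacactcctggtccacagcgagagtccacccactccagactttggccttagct
Stra6: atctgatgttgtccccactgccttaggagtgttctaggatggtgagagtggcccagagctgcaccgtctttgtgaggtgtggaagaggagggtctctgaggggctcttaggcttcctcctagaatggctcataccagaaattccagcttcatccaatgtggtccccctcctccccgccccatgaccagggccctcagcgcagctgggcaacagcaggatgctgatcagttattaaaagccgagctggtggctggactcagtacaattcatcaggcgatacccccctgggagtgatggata
TAATCC or its reverse complement GGATTA stood in 7.06% of all 32851 promoter windows, and among the members in those of Rpe65 and Rgr. CATGTG or its reverse complement CACATG stood in 14.2% of all windows, and among the members in those of Rpe65, Rgr and Rlbp1. The windows of Rpe65 and Rgr thus each held both, as did 1.03% of all windows. In the Rpe65 window the first base of GGATTA lay 42 bases before the start, and in the Rgr window the first base of CACATG lay 5 bases before it. Of 3 further motifs searched on both strands, CACGTG (7.15% of windows) was found for Rdh11, ACAAAG (18.7%) for Rlbp1, Rrh and Stra6, and TATAAA (13.6%) for Rlbp1 and Rrh. CATGTG and CACGTG share the E-box form CANNTG, and a match describes the sequence and not the binding of a factor.

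The 9 genes made up a large part of the RNA of these samples. They took between 7.84% and 11.3% of all counted reads of a library, at a mean of 9.43% ± 1.06 (SD, n = 6) in controls and 9.30% ± 1.25 (SD, n = 5) after laser. Rgr had the highest mean count of any gene in the table, Rpe65 was the fifth by mean count, and Rdh5, Rlbp1 and Rdh10 stood at places 13, 14 and 19. Rdh11, a dehydrogenase found in many tissues, was at place 2153, with 1433 to 3283 reads per library. Counting error is therefore small beside the spread between libraries for every member. Total counts ranged from 25700881 to 38755994 per library.

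Levels between genes were compared as normalised read counts (CPM, scaled to library size by TMM) per kilobase of annotated exon. Rgr was highest at 12704 ± 2192 CPM per kb (SD, n = 11), followed by Rpe65 at 6152 ± 1306. Rdh5 reached 2459 ± 444 CPM per kb and Rlbp1 2004 ± 377. Rdh10, a retinol dehydrogenase, stood at 854 ± 157, the esterifying enzyme Lrat at 449 ± 99.9 and Stra6 at 342 ± 88.9 CPM per kb. Rrh had 111 ± 14.2 and Rdh11 22.4 ± 3.94 CPM per kb. From each gene to the next the order held inside all 11 libraries, with the exception of Lrat and Stra6, whose levels lay this way round in 8 of 11. The mean of Lrat was 1.31 times that of Stra6, and these neighbours were not separated beyond their spread. With the length of the longest or the principal transcript in place of all exons, Stra6 (649 CPM per kb) stood above Lrat (449). The other 7 genes kept their places by mean. Rdh5 came nearer to Rpe65, with 5490 against 6387 CPM per kb of principal transcript. The order inside each library is given for all exons only.

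**Figure D1:**
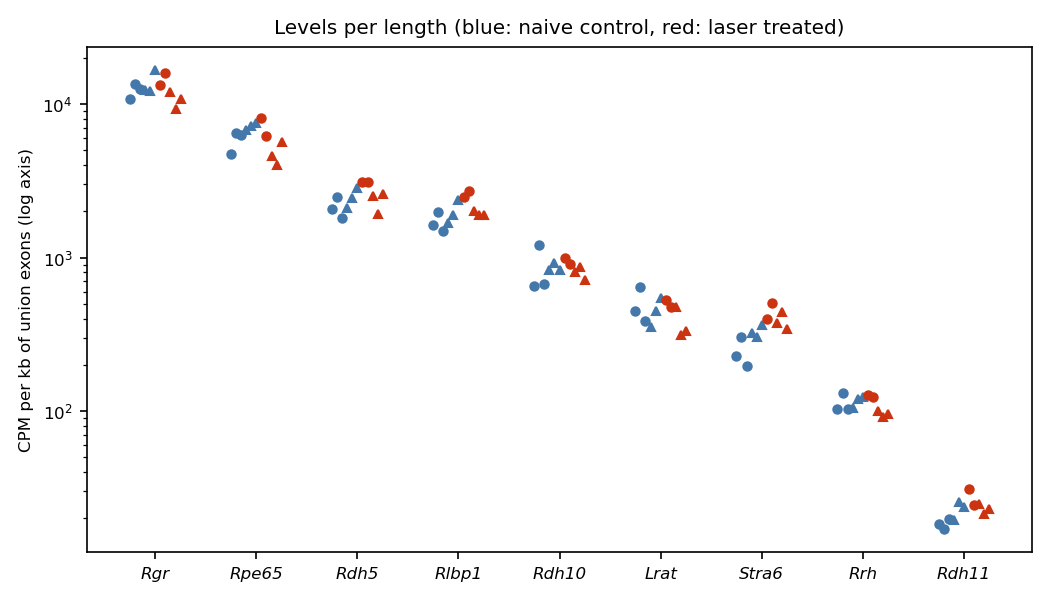
Level of each visual cycle gene in each library, in CPM per kb of exon on a log axis, for 6 naïve control (blue) and 5 laser treated (red) libraries; circles are libraries labelled R1 and triangles those labelled R2. The genes fall from Rgr (mean 12704) to Rdh11 (mean 22.4), and only the points of Lrat and Stra6 change order between libraries.

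Whether laser treatment had altered these genes 3 months later was asked first for uptake of retinol. Stra6 ranged from 1148 to 2103 CPM in the control samples, with a median of 1772. The laser treated samples had 2314, 2947, 2166, 2580 and 1978 CPM. All 5 laser treated samples lay above the control median and 4 of 5 above every control, so that the groups overlapped only through laser treated replicate 5 and naïve control replicate 6. Stra6 was 1.44 times as high after laser (95% interval 1.13 to 1.83), a log2 difference of 0.53 ± 0.16 (SE), with an unadjusted p of 0.00562 and an adjusted p of 0.179 in edgeR's quasi-likelihood test. No visual cycle gene passed an adjusted p of 0.05, and neither did any other of the 14602 genes (0%), whereas 1203 genes (8.24%) were higher and 1122 genes (7.68%) lower after laser at an unadjusted p under 0.05. Stra6 was the single member among these. DESeq2 gave Stra6 an adjusted p of 0.0372, in a test that called 547 of the 6946 genes given an adjusted p (7.88%). The adjusted p of Stra6 ranged from 0.0372 to 0.893 over 31 alternative settings.

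The difference of Stra6 depended on the processing and on the libraries. The GC content of its transcript, 56.3%, was at the 80.6 percentile of all genes. When the trend of counts on GC content was removed from each library, the log2 difference of Stra6 was 0.33 (unadjusted p = 0.135 and adjusted p = 0.893 in edgeR). Within the libraries labelled R1 in the first line of their transcript files the difference was 0.92 ± 0.24 (SE, adjusted p = 0.173 in edgeR). Within those labelled R2 it was 0.25 ± 0.15 (SE, adjusted p = 0.814 in edgeR). What the labels R1 (control replicates 1 to 3, laser treated replicates 1 and 2) and R2 (control replicates 4 to 6, laser treated replicates 3 to 5) stand for is not given in the sources used here.

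Esterification and isomerization came next. Lrat ranged from 1882 to 3430 CPM in controls (median 2396), and the laser treated samples had 2824, 2556, 2555, 1676 and 1771 CPM. The 2 lowest values of all 11 libraries were laser treated, and the other 3 lay inside the control range. The log2 difference was -0.14 ± 0.18 (SE, adjusted p = 0.783 in edgeR), with an interval from -0.53 to 0.25. Rpe65, whose isomerohydrolase makes 11-cis-retinol, ranged from 9105 to 14658 CPM in controls (median 12818). Its laser treated values were 15720.1, 12011, 8920.2, 7718 and 10916 CPM. They spanned more than the control range on both sides, with 1 sample above and 2 below all controls. The log2 difference of Rpe65 was -0.19 ± 0.18 (SE), between -0.57 and 0.19 (adjusted p = 0.670 in edgeR).

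The oxidation and binding of 11-cis-retinoids involve Rdh5, Rdh11, Rdh10 and Rlbp1. Rdh5 ranged from 5113 to 7947 CPM in controls (median 6382) and was 8747, 8750.4, 7126, 5415 and 7275 CPM in the laser treated samples. The first 2 of these exceeded all controls, and the log2 difference was 0.21 ± 0.15 (SE, adjusted p = 0.529 in edgeR). Part of the Rdh5 locus cannot be read singly, since 720 exonic bases (25.6% of its exons) are shared with Bloc1s1 on the same strand. Rlbp1 ranged from 4407 to 6999.6 CPM in controls (median 5284) and was 7286, 8065, 5957, 5599 and 5606 CPM after laser. All 5 laser treated values were above the control median, and the log2 difference was 0.26 ± 0.14 (SE), with an interval from -0.05 to 0.57 and an adjusted p of 0.405 in edgeR. Rdh11 ranged from 58.1 to 87.6 CPM in controls (median 67.5) and was 106, 83.6, 85.4, 73.0 and 78.6 CPM after laser. Here too all laser treated values exceeded the control median, with a log2 difference of 0.27 ± 0.14 (SE, adjusted p = 0.369 in edgeR). Rdh10 ranged from 2711 to 5025 CPM in controls (median 3438) and was 4132, 3776, 3368, 3618 and 2975 CPM after laser. Its log2 difference was 0.01 ± 0.16 (SE, adjusted p = 0.980 in edgeR), and every laser treated sample lay inside the control range.

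The RPE opsins did not separate the groups. Rgr, which binds all-trans-retinal, ranged from 51468 to 80080.3 CPM in controls (median 59638) and was 63879, 77078, 57227, 44871 and 52045 CPM after laser. One laser treated sample lay below all controls, and the log2 difference was -0.08 ± 0.15 (SE, adjusted p = 0.866 in edgeR). Rrh ranged from 605 to 778 CPM in controls (median 660.2) and was 749, 727, 590.3, 538 and 561 CPM after laser. The 3 lowest Rrh values were laser treated libraries, and the log2 difference was -0.09 ± 0.12 (SE, adjusted p = 0.803 in edgeR). As a fold the intervals ran from 0.760 to 1.18 for Rgr and from 0.783 to 1.13 for Rrh. For no member were the groups free of overlap, against 2.26% of all genes. Across all 9 genes the median log2 difference was 0.01, with 5 genes higher and 4 lower, and over all genes it was -0.02.

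**Figure D2:**
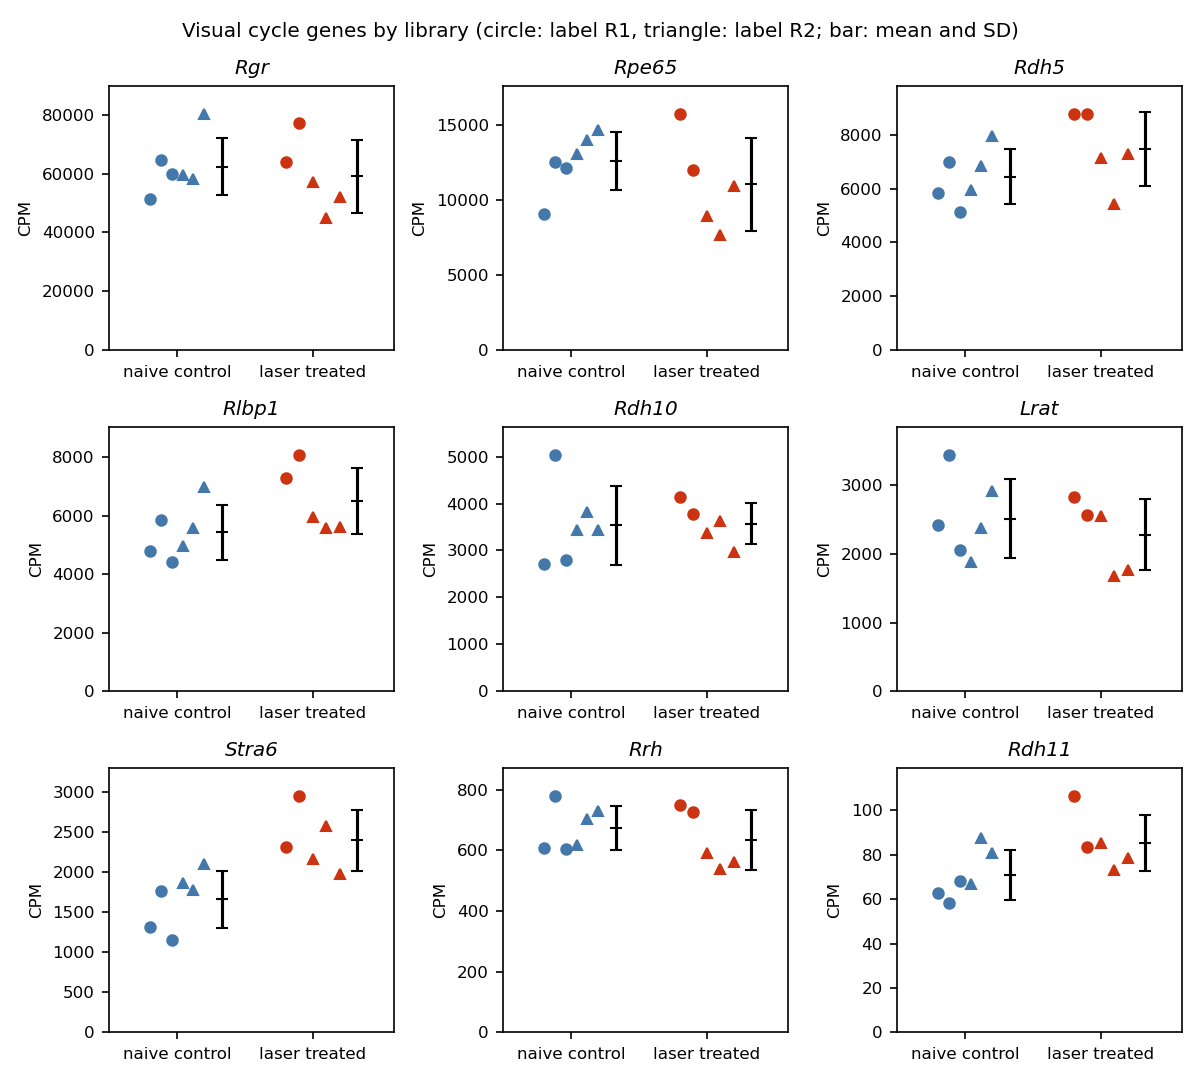
CPM of each visual cycle gene in each library, on linear axes from 0, for 6 naïve control (blue) and 5 laser treated (red) libraries; circles are labelled R1 and triangles R2, and the bar gives the mean and SD. Stra6 is the gene with most separation, with laser treated values of 1978 to 2947 against 1148 to 2103 in controls. Both R1 laser treated samples lie above all R2 laser treated samples for every gene except Stra6 and Rdh11, for Lrat only just.

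Libraries differed along the visual cycle as a whole. The summed CPM of the 9 genes was highest in control replicate 6 (118944) and lowest in laser treated replicate 4 (72088). Control replicate 2 held the highest value of 3 members, laser treated replicate 2 that of 3 and laser treated replicate 1 that of 2. Laser treated replicate 4 held the lowest value of 4 members and control replicate 3 that of 3. The libraries that were extreme thus came from both groups.

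For 7 of the 9 genes the direction of the group difference was not the same within both labels, and Stra6 and Rdh11 were higher after laser in both. Within R1, where 3 controls faced 2 laser treated libraries, all 9 genes were higher after laser, from 0.05 for Lrat to 0.92 for Stra6 on the log2 scale. Within R2, where 3 faced 3, the difference was -0.58 ± 0.15 (SE) for Rpe65, -0.34 ± 0.16 for Rgr and -0.26 ± 0.13 for Rrh. The adjusted p of these differences in edgeR was 0.790, 0.792 and 0.796, and no member had an adjusted p under 0.05 within either label. Rlbp1 (-0.01), Rdh5 (-0.04) and Rdh11 (0.03) were close to 0 there, Lrat was at -0.24, Rdh10 at -0.08 and Stra6 at 0.25. Rpe65 averaged 13866 CPM in R1 laser treated against 11280 in R1 control samples, and 9185 in R2 laser treated against 13921 in R2 control samples. The 3 R2 laser treated values of Rpe65 (7718 to 10916 CPM) lay below the 3 R2 control values (13080 to 14658 CPM). No share of all genes with such a separation of 3 from 3 is given. The difference between the labels was tested as an interaction, which was added after the data were seen. It had an unadjusted p under 0.05 for 6 of the 9 genes, against 9.5% of all genes, and an adjusted p under 0.05 for none of the 14602 genes in edgeR. For Rpe65 it was -0.90 ± 0.26 (SE, unadjusted p = 0.00504 and adjusted p = 0.351 in edgeR). The members rise and fall together in these libraries, so 6 of 9 is not a count of independent results.

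**Figure D3:**
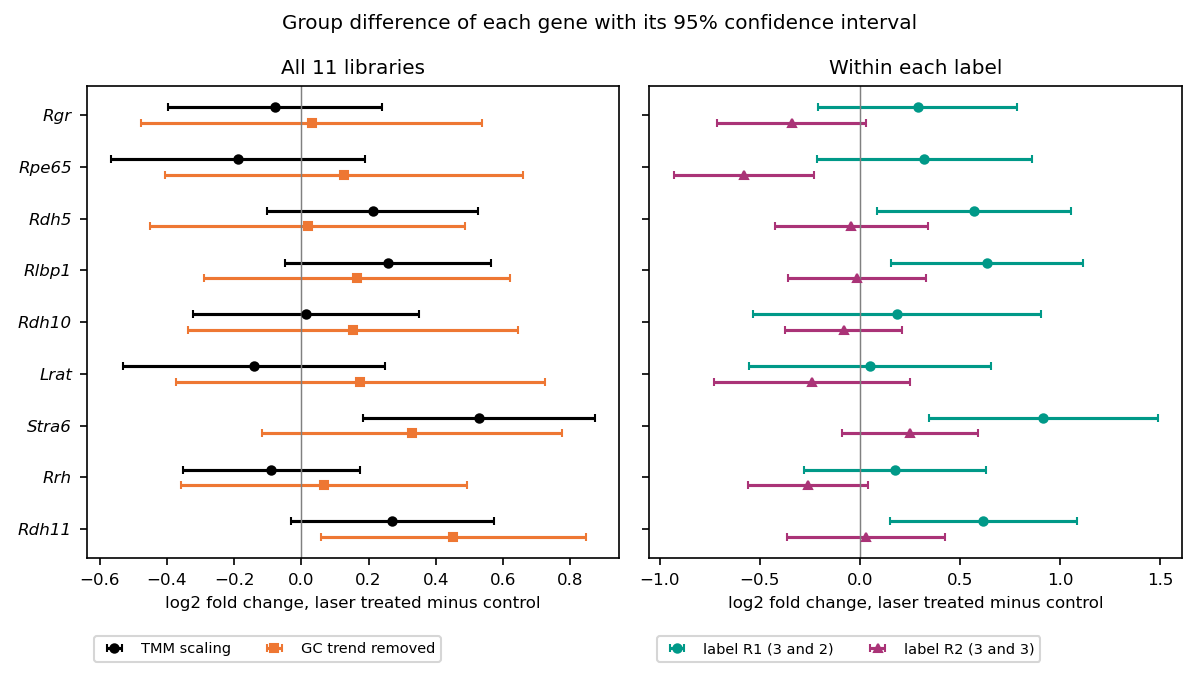
Log2 fold change of each visual cycle gene, laser treated minus control, with 95% intervals, on the left over all 11 libraries with TMM scaling (black) and after removal of the GC trend (orange), on the right within label R1 (circles) and R2 (triangles). Stra6 is the one gene whose interval on the left (0.18 to 0.87) stays above 0 with TMM scaling, and Rdh11 is the one gene whose interval does so after removal of the GC trend.

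Photoreceptor RNA also varied widely between libraries, and the laser treated libraries did not all lie on the same side of the controls of their label. The summed CPM of 13 photoreceptor markers was 6685 to 27317 in control samples and 4761 to 20400 in laser treated samples. In R1 both laser treated libraries (4761 and 6059) were below all 3 controls (12150 to 27317), and in R2 2 of the 3 laser treated libraries (19765 and 20400) were above all 3 controls (6685 to 9660.4) and the third, replicate 5 (4842), was below them. None of the 13 markers had a mean under 1 CPM. Across the 11 libraries Pearson's r with the photoreceptor sum was negative for all 9 members, from -0.16 for Lrat to -0.79 for Rdh5. Within R1 it was negative for all 9, and within R2 it was positive for Stra6 (0.63), Rdh10 (0.51) and Rdh11 (0.08). Without the 2 libraries farthest from the median photoreceptor sum it was -0.02 for Stra6 and 0.14 for Rdh10. For Rdh5 Pearson's r on log2 values was -0.79 (permutation p = 0.00544, adjusted p = 0.0490 over 9 genes) and Spearman's coefficient -0.85 (permutation p = 0.00157, adjusted p = 0.0141). Without the 2 libraries farthest from the median photoreceptor sum, r for Rdh5 was -0.66, and it was -0.99 within R1 and -0.52 within R2. For Rpe65 r was -0.64 (permutation p = 0.0362, adjusted p = 0.109) and Spearman's coefficient -0.53 (permutation p = 0.0997, adjusted p = 0.180). It was -0.73 without the 2 farthest libraries, -0.69 within R1 and -0.73 within R2. These points share the library and its total, since CPM of one gene falls when others take more reads. With the photoreceptor sum as a covariate the group difference of Rpe65 was -0.40 ± 0.13 (SE, unadjusted p = 0.00857 and adjusted p = 0.230 in edgeR), and that of Stra6 was 0.44 with an unadjusted p of 0.00857.

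**Figure D4:**
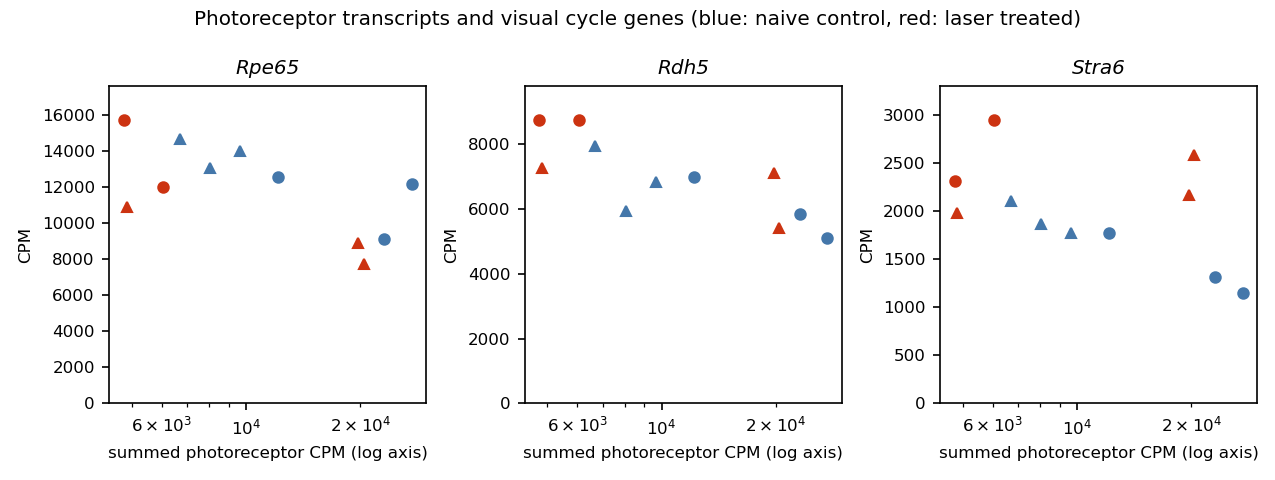
CPM of Rpe65, Rdh5 and Stra6 against the summed CPM of 13 photoreceptor markers (log axis) in 6 naïve control (blue) and 5 laser treated (red) libraries; circles are labelled R1 and triangles R2. Rdh5 falls with the photoreceptor sum over the 11 libraries (r = -0.79), and the laser treated samples of Stra6 lie at 1978 CPM or above at both ends of the axis.

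The tissue was checked against markers of RPE and of other cell types. Of 12 RPE markers outside the visual cycle, 11 had a mean of at least 1 CPM, led by Ttr, and Best1, the RPE chloride channel, was near 0 (mean 0.973 CPM). Their sum was 29052 to 35216 CPM in controls and 20127 to 36642 in laser treated samples. Of these 12 genes, Slc16a8, Slc6a20a and Krt18 were higher and Mitf was lower after laser at an unadjusted p under 0.05, beside 8.24% and 7.68% of all genes. The summed CPM of 9 pigment genes, shared by RPE and choroidal melanocytes, was 1591 to 3507 in controls and 1624 to 3578 after laser. The 10 endothelial markers summed to 132 to 358 CPM in controls and 214 to 589 after laser, and the 7 macrophage markers to 209 to 381 and 292 to 498 CPM. The 6 fibroblast markers summed to 86.3 to 473 and 96.9 to 425 CPM, the 6 Müller glia markers to 441 to 711 and 480 to 931, and the 4 blood markers to 48.1 to 326 and 37.2 to 159. Y-linked genes were also measured, at 0 to 219 CPM in controls and 0 to 246 after laser, so libraries of both kinds stood in each group. They were not spread evenly. Control replicates 4 and 5 had 219 and 200 CPM, and the other controls, with all those of R1, at most 0.0646. Laser treated replicates 1, 4 and 5 had 246, 157 and 145 CPM, replicate 2 had 8.29 and replicate 3 had 0. With Y-linked expression as a covariate the log2 difference of Stra6 was 0.50 (unadjusted p = 0.0146 in edgeR). The part of these cell types in the results was not tested.

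A ratio of 2 genes inside a library does not depend on scaling, and all 36 pairs of members were therefore compared. The test was an exact permutation of the group labels, two-sided, over the 462 ways to choose 5 of the 11 libraries. Of the 36, 18 pairs had an unadjusted p under 0.05 and 11 pairs an adjusted p under 0.05 over the 36 pairs, which share genes and are not independent. The same test gave an unadjusted p under 0.05 for 28% of the 5697000 pairs that can be made of the 3376 genes with a mean of at least 50 CPM. Stra6 was in 4 of the 11, Rlbp1 relative to the opsins in 2, and Rdh5 or Rdh11 in the other 5. The log2 ratio of Stra6 to Rpe65 was -2.94 ± 0.24 (SD, n = 6) in controls and -2.18 ± 0.45 (SD, n = 5) after laser, a difference of 0.76 (exact permutation p = 0.00216, the smallest this test can give, adjusted p = 0.0260). Stra6 to Rgr rose by 0.63 and Rlbp1 to Rgr by 0.35, both with the same exact p. Within labels the differences were 0.64 in R1 and 0.58 in R2 for Stra6 to Rgr, and 0.36 and 0.33 for Rlbp1 to Rgr. For Rdh5 to Rgr, Rlbp1 to Rdh5 and Rgr to Rrh the differences were 0.29, 0.05 and 0.01, with adjusted p of 0.0390, 0.610 and 0.959 from exact permutation tests. The groups did not overlap for 5 of the 36 ratios, and for 4.79% of the ratios of all those pairs.

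The members of these pairs differ in base composition. Rpe65 and Lrat have a low GC content (42.2% and 42.0%, at the 10.3 and 9.46 percentile), and Stra6 and Rdh5 a high one (56.3% and 56.8%, at the 80.6 and 83.4 percentile). After removal of the GC trend no pair passed the adjusted p of 0.05 in the exact permutation test, and 8 had an unadjusted p under 0.05. No share of all pairs of genes is given on that scale to set beside the 8. The difference for Stra6 to Rpe65 was then 0.23, for Stra6 to Rgr 0.33 and for Rlbp1 to Rgr 0.15, and that for Rdh5 to Rpe65 went from 0.42 to -0.13. The signs of Rpe65, Lrat, Rgr and Rrh also turned, to 0.13, 0.18, 0.03 and 0.07, so that all 9 members were higher after laser on that scale. The median log2 difference over all genes was 0.02 there. With the trend removed Rdh11 had an unadjusted p of 0.0276 (log2 difference 0.45, adjusted p = 0.864 in edgeR). So did 808 of all 14602 genes have an unadjusted p under 0.05 in that fit. The number of pairs that passed went from 11 to 7 without control replicate 1, 5 or 6, to 0 without control replicate 2 or 3, to 15 without control replicate 4, to 9 and 8 without laser treated replicate 1 and 2, and to 4 without laser treated replicate 3, 4 or 5. With a library left out the exact permutation test has fewer splits and a larger smallest p. These numbers therefore depend on the size of the split as well as on the library removed.

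**Figure D5:**
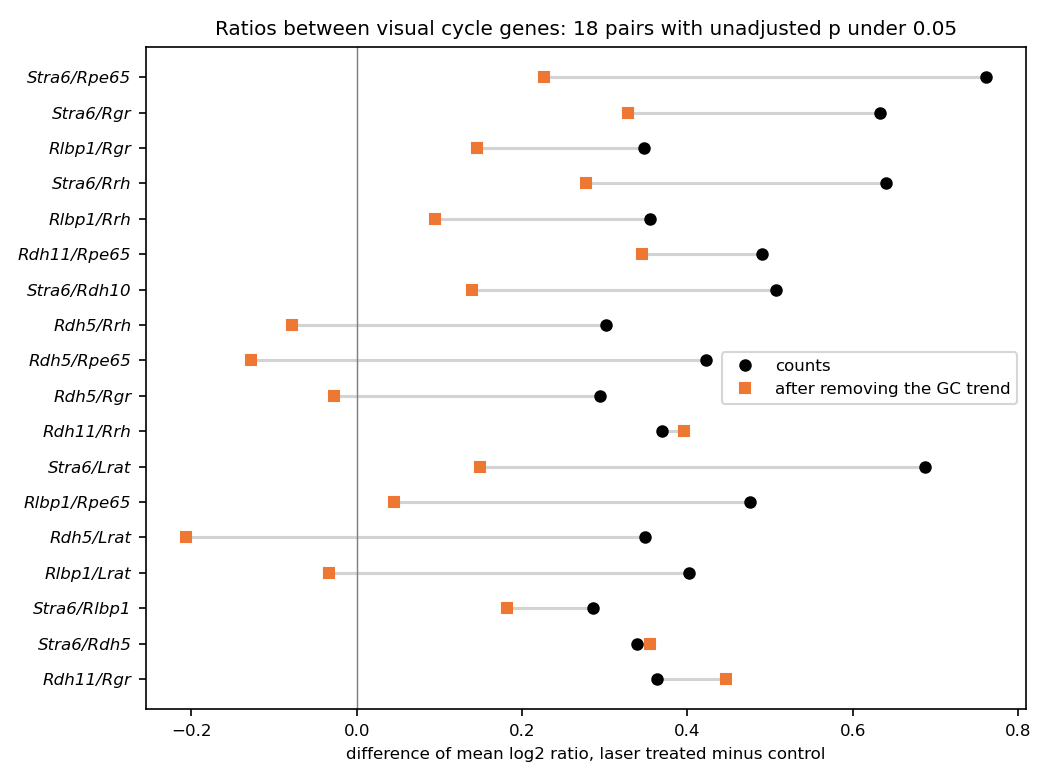
Difference of the mean log2 ratio of 2 genes, laser treated minus control, for the 18 pairs with an unadjusted p under 0.05, from counts (black circles) and after removal of the GC trend (orange squares). Most differences shrink, from 0.76 to 0.23 for Stra6 to Rpe65, and those of Rdh5 to Rpe65, Rgr, Rrh and Lrat and of Rlbp1 to Lrat pass through 0.

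Member levels were also compared with each other across libraries. Of the 36 pairs, 35 had a positive Pearson correlation of log2 CPM over the 11 libraries, with a median r of 0.54. No such share is given for pairs of other genes, so the number does not set the members apart from them. The closest pair was Rlbp1 and Rdh5, with r = 0.91 (permutation p = 0.000140, adjusted p = 0.00504 over 36 pairs). Its Spearman coefficient was 0.92 (permutation p = 0.000180, adjusted p = 0.00648). Without the 2 libraries farthest from the median of Rlbp1 r was 0.84, and it was 0.99 within R1 and 0.71 within R2. Lrat and Rrh followed with r = 0.86 (permutation p = 0.000710, adjusted p = 0.0128) and a Spearman coefficient of 0.85 (permutation p = 0.00151, adjusted p = 0.0272), with 0.75 without the 2 farthest libraries, 0.87 within R1 and 0.80 within R2. Rpe65 and Stra6 were the single pair below 0 (r = -0.03, permutation p = 0.922, adjusted p = 0.922, and a Spearman coefficient of -0.12, permutation p = 0.733, adjusted p = 0.825). Their r was 0.43 without the 2 farthest libraries, 0.49 within R1 and -0.80 within R2.

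The genes most like Rpe65 and Rgr were sought among 8853 genes with a mean of at least 10 CPM, by Pearson's r of log2 CPM over 11 libraries after subtraction of each group's mean. For Rpe65 these were Med8 (r = 0.94), Trpm3 (0.93), Acad11 (0.93), Pgcp (0.93) and Pdpn (0.91). For Rgr they were Kcnj13 (0.98), Arl6ip1 (0.97), Cryz (0.93), Enpp5 (0.93) and Rab20 (0.93). Kcnj13, the potassium channel of the RPE, and Trpm3 were on the list of RPE markers. By the same measure the member most like Rgr was Rlbp1 (0.87), at place 27 among all genes searched, and the member most like Rpe65 was Rdh5 (0.76), at place 201. The member least like Rgr was Rdh10 (0.37), at place 2300, and the member least like Rpe65 was Stra6 (0.33), at place 2434.

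Of 57 further genes of retinoid metabolism, 46 were in the table, and 3 of them were higher and none lower after laser at an unadjusted p under 0.05 (8.24% and 7.68% of all genes). Their median log2 difference was 0.07, against -0.02 over all genes. The 3 were Lipe, Pnpla2 and Rxrb. Lipe, the hormone-sensitive lipase, ranged from 10.3 to 13.0 CPM in controls and from 16.6 to 23.6 CPM after laser, without overlap of the groups (log2 difference 0.83 ± 0.17 SE, unadjusted p = 0.000272, adjusted p = 0.172 in edgeR). After removal of the GC trend it was 0.57 with an unadjusted p of 0.0101. Pnpla2, the adipose triglyceride lipase, ranged from 31.2 to 52.0 CPM in controls and from 49.9 to 70.6 CPM after laser (log2 difference 0.56 ± 0.16 SE, adjusted p = 0.174 in edgeR), and its difference was 0.31 (unadjusted p = 0.115) on GC-adjusted counts. Both enzymes release fatty acids from stored lipid in many tissues. Rxrb, a retinoid X receptor, differed by 0.44 ± 0.20 (SE, adjusted p = 0.307 in edgeR).

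Retinol carriers were compared in the same way. Ttr, which carries retinol with Rbp4 in blood, was highest of this list at 8559 to 22193 CPM over all libraries, with a log2 difference of -0.20 ± 0.20 (SE). Rbp4 itself was low (mean 3.23 CPM). Of 8 carriers in the table none had an unadjusted p under 0.05, beside 8.24% of all genes higher and 7.68% lower. Among oxidoreductases Dhrs3, a retinal reductase, was highest (mean 147 CPM, log2 difference 0.31 ± 0.16 SE), and among carotenoid cleavage enzymes Bco2 (15.9 CPM, -0.14 ± 0.28 SE). The list drawn up for ester enzymes was led by Degs1 (1333 CPM, -0.06 ± 0.11 SE), whose place on that list is not a statement of its function. Aldh1a1, which makes retinoic acid, had a mean of 38.83 CPM and a log2 difference of 0.64 ± 0.39 (SE), and Rarb, a retinoic acid receptor, a mean of 47.5 CPM and -0.32 ± 0.18 (SE).

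The genes for the photoreceptor steps of the cycle differed in how widely they varied inside the groups. Rdh12, a photoreceptor retinal reductase, ranged from 62.2 to 248 CPM in controls and from 35.7 to 191 CPM after laser. Rbp3, the retinoid-binding protein of the space between photoreceptors and RPE, ranged from 267 to 1061 CPM in controls and from 169.9 to 1185 CPM after laser. Abca4, the outer segment flippase that is also made in the RPE, spread less, from 146 to 196 and from 122 to 207 CPM, with a log2 difference of 0.08 ± 0.15 (SE). Rdh8 was near 0 (mean 0.923 CPM), and Opn4 was the higher of 2 other opsins (mean 5.05 CPM, log2 difference 0.76 ± 0.78 SE). None of the 7 genes of this list had an unadjusted p under 0.05, beside the same shares of all genes.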

How the data were processed

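RPE/choroidal RNA of 6 naïve control and 5 laser treated C57BL/6J mice was sequenced; the study's methods state 6 per group, and 5 laser treated samples were analysed here. The authors deposited raw counts of reads per gene for 14602 genes, with columns of their own log2 fold changes, p-values and other statistics, which were not used. Per the labels' processing notes, bcl2fastq 2.18.0.12, Trim Galore, STAR 2.5.3a, featureCounts 1.5.3, StringTie 1.3.3, edgeR 3.22.3 and the builds mm10 and GRCm38 were used. The authors also deposited StringTie transcripts with TPM, each of 1 exon. Summed TPM of Rpe65 varied 11.2-fold between libraries against 2.04-fold in CPM, and TPM served only as an alternative. Pre-amplification of small inputs can favour fragments by GC content and length.

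Groups were compared with edgeR 4.0.16 in R 4.3.3 (TMM, filterByExpr, which removed 0 genes, robust quasi-likelihood F test, Benjamini-Hochberg adjustment over all 14602 genes, threshold 0.05). The SE is the log2 fold change divided by the root of F. CPM used TMM-scaled library sizes. Total counts were 25700881 to 38755994, and the SE gives the precision. GC content and lengths came from GENCODE M21; 2.40% of the genes were not matched. The GC and length trends were removed from each library by loess (span 0.3). Ratios used a pseudocount of 0.5, and correlations 100000 permutations, in Python 3.11.15 with numpy 2.4.6, pandas 2.3.3 and scipy 1.17.1. The edgeR fit was tested on simulated data. Alternatives were DESeq2 1.42.0, limma 3.58.1 (voom with quality weights; trend on log2 TPM, pseudocount 1 or 0.1), other scalings and filters, covariates, the labels R1 and R2, the replicate block and each library left out.

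The members and lists were chosen with earlier results of these data known. Named were all members, of the retinoid lists the genes with an unadjusted p under 0.05, the highest of each list and Abca4, Rdh8, Rdh12, Rbp3, Rbp4 and Ttr, and the 5 genes most like Rpe65 and Rgr; Best1 was named after its values were seen. Some genes that this rule names are not reported here. The group by label interaction, the principal transcript length, the relation to photoreceptor markers and the joint removal of control replicate 6 and laser treated replicate 5 for ratios, overlaps and retinoid lists were chosen after seeing the data, as were the ratios of all pairs of genes with a mean of at least 50 CPM.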

Additional observations from a re-analysis of the deposited data

Results flagged for a closer look

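For 6 of the 9 visual cycle genes the group difference differed between the labels R2 and R1 at an unadjusted p under 0.05 in edgeR, against 9.5% of all genes. The members rise and fall together in these libraries, so the 6 are not independent results. Values are R2 minus R1 on the log2 scale. The difference was -0.90 for Rpe65, -0.65 for Rlbp1, -0.61 for Rdh5, -0.63 for Rgr, -0.67 for Stra6 and -0.58 for Rdh11, with adjusted p between 0.351 and 0.495. The photoreceptor sum was below all controls of the same label in laser treated replicates 1, 2 and 5 and above them in replicates 3 and 4, and its part in these differences was not tested.

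Of 34 sets of values (members and cell type sums in each group) 2 held a value set apart by a wide gap, and chance gives this in about 1 in 20. The pigment gene sum of control replicate 4 was 3507 CPM against 1591 to 2238 in the other controls, and the blood marker sum of laser treated replicate 5 was 159 CPM against 37.2 to 71.6 in the other laser treated samples. No visual cycle gene held such a library.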

How the results depend on the processing

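No visual cycle gene passed an adjusted p of 0.05 under 30 of 31 alternatives, and DESeq2 called 1, Stra6. The alternative without a filter repeats the reported fit, because filterByExpr removed 0 genes. The number with an unadjusted p under 0.05 was 1 as reported, 3 with total count scaling and 0 with log2 TPM at a pseudocount of 0.1. It was 2 with the replicate block, 4 within label R1 and 2 with photoreceptor markers as a covariate. Without control replicate 6 and laser treated replicate 5 it was 2, and it was 1 to 2 with each library left out. A number of 1 did not always stand for Stra6. The gene was Rdh11 with the GC trend removed, with or without the block. It was Rpe65 within label R2 and Rdh5 with log2 TPM at a pseudocount of 1. Shares of all genes under these settings are not given beside these numbers. The groups overlapped for every member as reported, while 1 gene (Stra6) did not overlap with total count scaling or without control replicate 6 and laser treated replicate 5, and 0 to 1 with each library left out. The Stra6 groups overlapped only through these 2 libraries, so the outcome of removing them was set in advance and adds no evidence. No share of all genes without overlap is given for these settings. The number of retinoid pathway genes was 3 as reported, 9 without both libraries, which was added after seeing the data, and 2 to 6 with each library left out. Shares of all genes in the fits with libraries left out are not given, so these changes are not read as a result about retinoid genes. The 11 pair ratios became 0 with TPM, 0 with the GC trend removed, 0 without control replicate 6 and laser treated replicate 5, and 0 to 15 with each library left out. Without those 2 libraries the smallest p of the exact permutation test is 0.00794, against 0.00216 with all libraries, so passing is harder there. The places of 2 genes changed with the longest or the principal transcript length, and of 4 with TPM.

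Stra6 kept its direction in all 31 alternatives, with an unadjusted p under 0.05 in 26, DESeq2 giving a log2 difference of 0.53. The fit without a filter, which repeats the reported one, is counted among the 26. Rdh11 kept its direction as well. Directions turned with the GC trend removed for Rpe65 (0.13), Lrat (0.18), Rgr (0.0308) and Rrh (0.0668), and with the block added to it these were 0.202, 0.287, 0.109 and 0.115. With log2 TPM they turned for Rpe65 (0.13), Lrat (0.21) and Rrh (0.23) at both pseudocounts, within label R1 for Rpe65 (0.32), Lrat (0.0498), Rgr (0.29) and Rrh (0.18), and within label R2 for Rlbp1 (-0.0134), Rdh5 (-0.0433) and Rdh10 (-0.0807). Rgr was 0.0490 without control replicate 6 and laser treated replicate 5. Rdh10 was -0.0404 with the length trend removed, -0.0507 with the photoreceptor covariate, -0.00546 with the Y-linked covariate, and between -0.0611 and 0.141 with each library left out. The cause was not tested.

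Replicate numbers did not pair the libraries, since same-numbered libraries deviated together with r between -0.01 and 0.28 and 2 of 5 laser treated libraries correlated best with the control of their number. With the replicate block, which needs 10 libraries, Stra6 differed by 0.62 (unadjusted p = 0.00231). Sign flips over 5 pairs passed 0 ratios, and their smallest p is 0.0625, so that none could pass.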
